A study of Mus musculus with 6 samples.

Results

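The genes described here encode 9 nuclear receptors of the liver that sense foreign compounds, fatty acids, thyroid hormone and estrogen: Nr1i2, Nr1i3, Ppara, Pparg, Ppard, Rxra, Esr1, Thrb and Thra. They were chosen by gene symbol, each matched 1 of the 34745 genes in the deposited table, and all 9 were among the 12556 genes with enough counts to be tested. RNA sequencing was done on 6 liver libraries of 12-week-old C57BL/6 mice, collected 48 h after partial hepatectomy (PHx, the removal of part of the liver, after which the remainder regrows). In 3 libraries the mice were labelled Sox9HKO (HKO below), and in 3 they were Sox9f/f controls, labelled WT and called so below. All mice of both groups had the operation, and no unoperated group was analysed here. The sources used here do not spell out HKO, name the Cre driver or the deleted exons, or give the sex of the mice, nor do they state how many animals gave the libraries, so the p-values here speak only of the spread among these 6 libraries. The sample labels give liver as the source and hepatocyte as the cell type, and the series title speaks of primary hepatocytes.

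Nuclear receptors are transcription factors that small fat-soluble molecules switch on. PXR (Nr1i2) and CAR (Nr1i3) sense drugs, steroids and bile acids and turn on genes for detoxification, PPAR-alpha (Ppara), PPAR-delta (Ppard) and PPAR-gamma (Pparg) bind fatty acids, and the thyroid hormone receptors (Thra, Thrb) bind triiodothyronine. All of these pair with RXR-alpha (Rxra) on DNA, whereas the estrogen receptor (Esr1) binds as a pair of its own. In liver, PPAR-alpha is known for the response to fasting, PPAR-gamma for fat storage, and CAR for enlargement of the liver when drugs activate it.

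The libraries held 16659778 to 21168233 counts, and the receptors between 61 (Pparg) and 10075 (Rxra) counts in a library. Sox9 fell to 48.3% of its WT mean (log2 fold change -1.05, adjusted p = 0.0284), but was not called with the replicate block, nor without any 1 of HKO 2, HKO 3, WT 2 and WT 3 (up to 0.0975). The 10 hepatocyte markers were all present and 3 of them rose, with none lower, beside 12.1% of all genes tested called higher. Their summed level was 77691 to 82547 CPM in HKO and 80880 to 102330 CPM in WT. All 12 Kupffer cell and macrophage markers rose, with a summed level of 289 to 445 CPM in HKO against 193 to 204 CPM in WT, and all 3 tested B and plasma cell markers rose (20.1 to 27.3 against 1.11 to 2.30 CPM). Of the 4 tested biliary markers 3 fell, and 1 of these 3 was Sox9 itself. Of the T and NK cell markers Cd3d and Cd8a were at 0. Mitochondrial mRNAs took 25.9% of counts in HKO 2 and 12.1% to 16.3% elsewhere, and leaving them out before scaling moved no receptor's call. The part of the cell types whose markers differed in the receptor and list values below was not tested.

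The xenobiotic receptors Nr1i2 and Nr1i3 rose in HKO, and the other 7 receptors did not pass the test. Of the 9 receptors 2 were higher and none lower, beside 23.2% of all genes tested (12.1% higher and 11.2% lower), so the share called among the receptors was close to the background. For the count of 0 lower, no receptor with a lower mean in HKO had an unadjusted p below 0.05 in edgeR, and DESeq2 called none lower and 3 higher. The median log2 fold change of the 9 was 0.15, beside 0.02 over all genes tested. All 3 HKO values lay above all 3 WT values in 3 of the 9 receptors, and 22.5% of all genes tested had that pattern (44.2% with either direction).

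The sequences upstream of Nr1i2 and Nr1i3 are shown because both genes were called higher in HKO. Each is the stretch of 250 bases before the RefSeq transcription start on GRCm38.p6, read 5′ to 3′ on the gene's strand, at chr16:38294825-38295074 on the minus strand for Nr1i2 and chr1:171213720-171213969 on the plus strand for Nr1i3. Capitals mark any match, on either strand, to the letters AGGTCA (the hexamer that most receptors of this family bind), AGAACA (a hexamer of the glucocorticoid receptor site), CACGTG (an E-box) or TATAAA.
Nr1i2: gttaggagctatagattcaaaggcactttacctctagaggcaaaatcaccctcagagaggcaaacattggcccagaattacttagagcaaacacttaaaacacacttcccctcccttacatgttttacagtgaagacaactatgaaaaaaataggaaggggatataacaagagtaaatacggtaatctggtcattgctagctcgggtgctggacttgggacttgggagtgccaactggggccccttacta
Nr1i3: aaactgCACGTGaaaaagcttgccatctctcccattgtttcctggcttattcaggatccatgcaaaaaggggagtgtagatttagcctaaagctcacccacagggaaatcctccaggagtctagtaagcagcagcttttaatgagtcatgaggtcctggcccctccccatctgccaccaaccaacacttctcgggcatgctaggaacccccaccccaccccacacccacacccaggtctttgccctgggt
The Nr1i3 window holds 1 E-box, whose first base lies at position -244 counted from the start, and 6.02% of 32851 RefSeq windows of this length hold one. The Nr1i2 window holds none of these letters. AGGTCA, which 14.0% of windows hold, occurs in at least 1 window of Rxra, Pparg and Thrb and in none of the windows of Nr1i2, Nr1i3, Ppara, Ppard and Esr1. No window of the 9 genes held a direct repeat of AGGTCA with 1 base between, which is present in 0.0335% of all windows. In all, 8 of the 9 genes had promoter entries, 13 windows together. GC content was 44.0% in the Nr1i2 window and 53.2% in the Nr1i3 window, against 76.4% for Ppara and 69.6% for Ppard. Windows of the receptors not called ran from 40.8% to 82.4%, both of Pparg, and those of Esr1 were at 47.6% and 59.6%.

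Nr1i2 encodes PXR, which switches on Cyp3a genes when steroids, bile acids or drugs bind it. Nr1i2 (ENSMUSG00000022809, chromosome 16, 38248323 to 38294824, minus strand) had 129, 113 and 135 CPM in the HKO libraries 1, 2 and 3, against 59.7, 69.4 and 66.6 CPM in the WT libraries 1, 2 and 3 (CPM, counts scaled to library size with TMM factors). The groups did not overlap, and the lowest HKO library lay well above the highest WT library. The mean was 65.2 ± 5.0 CPM in WT and 126 ± 11.1 CPM in HKO (SD, n = 3 each). This is a log2 fold change of 0.95 (standard error 0.11, adjusted p = 0.00112, edgeR quasi-likelihood test with Benjamini-Hochberg adjustment over all genes tested). The rise was called when any of the 6 libraries was left out and under the other 8 settings tried, with log2 fold changes from 0.88 to 1.02.

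Nr1i3 encodes CAR, the receptor behind phenobarbital-type induction of Cyp2b genes. Nr1i3 (ENSMUSG00000005677, chromosome 1, 171213970 to 171220701, plus strand) had 157, 147 and 150 CPM in the HKO libraries, against 80.0, 53.8 and 59.2 CPM in the WT libraries. HKO values lay within a narrow band, and WT 1 was the highest of its group but still far below them. The mean was 151 ± 5.29 CPM in HKO and 64.3 ± 13.9 CPM in WT, which gave a log2 fold change of 1.24 ± 0.15 (standard error, adjusted p = 0.00155). The call held under the same 14 settings, with log2 fold changes from 1.12 to 1.41.

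The exons of Nr1i3 overlap those of Tomm40l, a gene of the mitochondrial import channel family on the opposite strand. In the GENCODE M21 annotation 3304 exon bases are shared (chromosome 1, 171216379 to 171220652), 74.9% of the annotated exon bases of Nr1i3. No strand-marking step is described for these libraries, so it is not known whether reads there could be assigned by strand. Tomm40l moved the other way, from 12.5 ± 2.26 CPM in WT to 6.69 ± 0.999 CPM in HKO (log2 fold change -0.90, adjusted p = 0.0116, and 0.0528 without WT 3). How the counting divided reads of the shared stretch between the genes is not known. The sum of both genes was 158 ± 6.27 CPM in HKO and 76.9 ± 12.4 CPM in WT.

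The ratio of the xenobiotic receptors to each other overlapped between the groups. Nr1i3 divided by Nr1i2, from the deposited FPKM (read counts scaled to gene length and library size), was 0.360, 0.384 and 0.33 in HKO and 0.397, 0.230 and 0.263 in WT. The difference of the mean log2 ratios was 0.31 (two-sided exact permutation p = 0.4 over 6 libraries, where the smallest possible p is 0.1, and 1 after Benjamini-Hochberg adjustment over 5 ratios). WT 1 lay above all HKO libraries and the other 2 WT libraries lay below them.

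**Figure D1:**
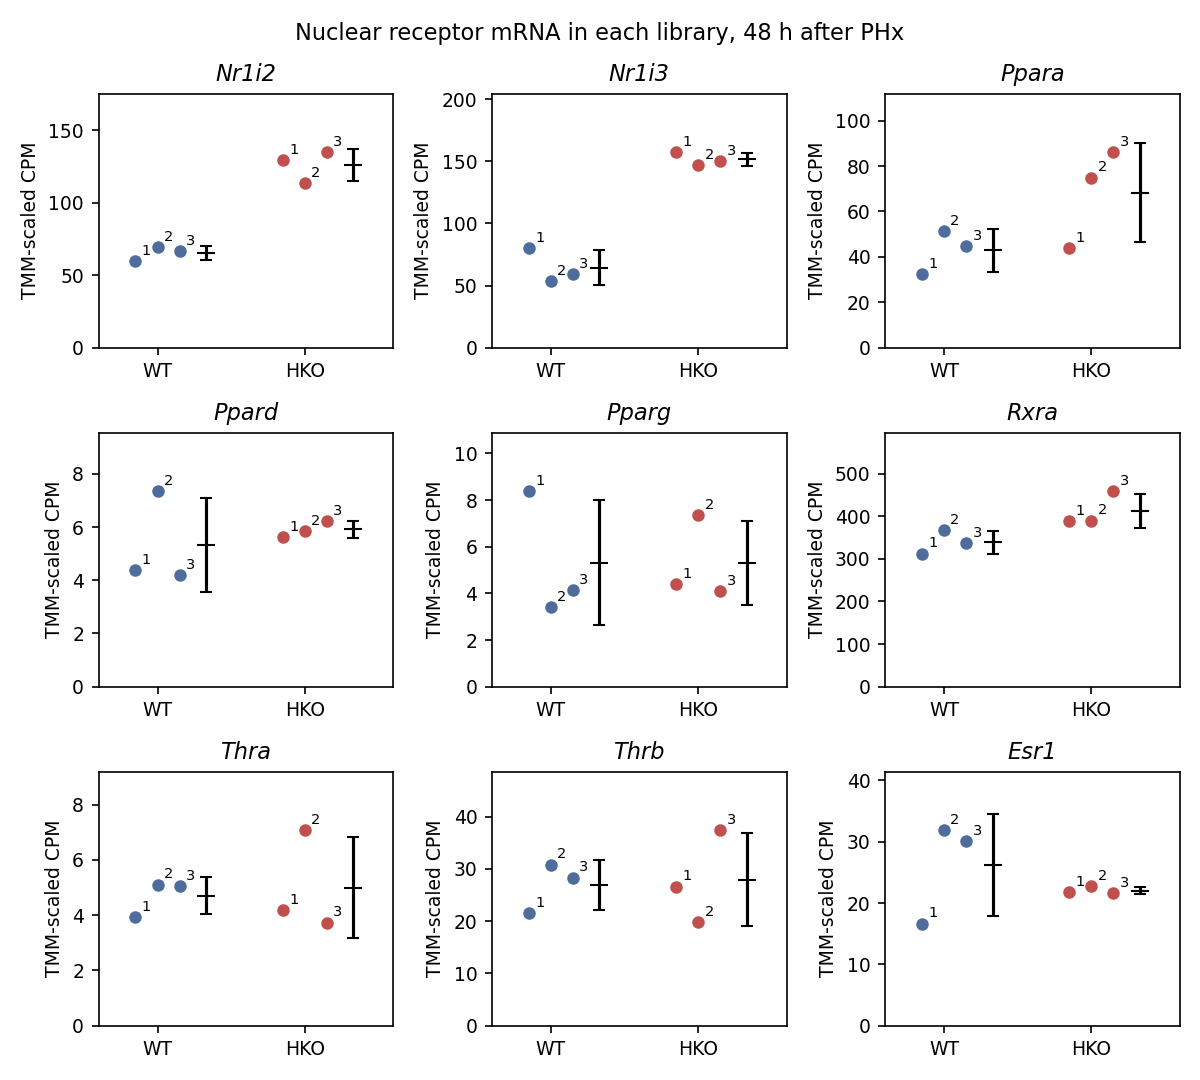
Each panel gives 1 receptor gene in TMM-scaled CPM on a linear axis from 0. Points are libraries, labelled by replicate number, and the black bar is the mean with 1 SD (n = 3 per group). Nr1i2, Nr1i3 and Rxra have all HKO points above all WT points, and the other 6 overlap.

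Genes that PXR and CAR are known to control were higher in part. Among 29 tested genes 14 rose (48.3%, beside 12.1% of all genes) and 1 fell, while 14 missed the threshold. The list had a median log2 fold change of 0.92. The median over the list, with the WT mean set to 0, was 0.80, 0.74 and 0.85 on the log2 scale in HKO 1, 2 and 3. The 3 HKO libraries thus stood close together. In WT 1, the WT library with the highest Nr1i3 and the lowest Nr1i2, the list median was 0.24. A link between the list and the level of either receptor was not tested. The count of rises lay between 10 and 17 when 1 library was left out, with 10 without WT 3 and 14 without HKO 2.

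The 4 largest rises of that list were in heme supply, electron transfer, export and hydroxylation. Alas1, the rate-limiting enzyme of heme synthesis, rose from 170 ± 38.6 to 964 ± 135 CPM (log2 fold change 2.50, adjusted p = 0.000298). Por, which passes electrons to all microsomal P450 enzymes, rose from 219 ± 65.5 to 947 ± 102 CPM (2.12, adjusted p = 0.000743). The export pump gene Abcc3 rose by 1.48 on the log2 scale, and Cyp2b10, the classical CAR target, by 1.36. Cyp2b10 stayed low even so, at 6.39 ± 0.626 CPM in HKO against 2.50 ± 0.299 CPM in WT. The 1 gene that fell was Aldh1a7, an aldehyde dehydrogenase gene (log2 fold change -0.73). The classical PXR target Cyp3a11, named here after its values were seen, had overlapping groups and a log2 fold change of 0.51 that did not pass (adjusted p = 0.172), but was called without WT 1 (0.78, adjusted p = 0.043).

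Ppara encodes the receptor that drives fatty acid oxidation in fasting. Ppara (ENSMUSG00000022383, chromosome 15, 85734983 to 85802819, plus strand) had 44.0, 74.9 and 86.1 CPM in the HKO libraries 1, 2 and 3, against 32.3, 51.3 and 44.8 CPM in the WT libraries. HKO 1 lay below WT 2 and WT 3, so the groups overlapped, while HKO 2 and HKO 3 lay above all WT values. The mean was 68.3 ± 21.8 CPM in HKO and 42.8 ± 9.66 CPM in WT, and the difference did not pass (log2 fold change 0.68, SE 0.26, 95% interval 0.07 to 1.28, unadjusted p = 0.0325, adjusted p = 0.0976). It was called with DESeq2 (adjusted p = 0.0435), with the replicate number as a block (0.0211) and without HKO 1 (0.0287), over a range of adjusted p from 0.0211 to 0.260 across all 14 settings.

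Known targets of PPAR-alpha were higher in most cases. Among 40 tested genes 32 rose (80.0%, beside 12.1% of all genes) and none fell, while 8 missed the threshold. Their median log2 fold change was 1.06. The median relative to WT was 1.005, 1.013 and 0.997 in HKO 1, 2 and 3. Of the HKO libraries HKO 1 had the lowest Ppara level, and a link between that level and the list was not tested. The largest rises were those of the hydroxylase genes Cyp4a14 (from 69.4 ± 19.5 to 776 ± 107 CPM, log2 fold change 3.48) and Cyp4a10 (2.95), of the thioesterase gene Acot3 (3.31), and of the hormone gene Fgf21 (2.99), which the liver secretes in fasting. Without WT 3, 24 rose. The list was drawn up with earlier results of these samples known, so its count is no independent evidence of direction.

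Ppard encodes a receptor that most tissues make. Ppard (ENSMUSG00000002250, chromosome 17, 28232754 to 28301469, plus strand) had 5.64, 5.86 and 6.24 CPM in the HKO libraries 1, 2 and 3, against 4.39, 7.35 and 4.21 CPM in the WT libraries. The HKO values fell inside the WT range, and the difference did not pass (log2 fold change 0.15, SE 0.24, 95% interval -0.41 to 0.71). WT 2 alone was above all HKO libraries, and without it the log2 fold change was 0.46 (adjusted p = 0.161).

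Pparg encodes the receptor of fat cells, which rises in fatty liver. Pparg (ENSMUSG00000000440, chromosome 6, 115360951 to 115490399, plus strand) had 4.40, 7.37 and 4.10 CPM in the HKO libraries 1, 2 and 3, against 8.38, 3.42 and 4.15 CPM in the WT libraries, from 61 to 151 counts per library. WT 1 and HKO 2 were high and the other 4 libraries were alike. The log2 fold change was -0.01 (SE 0.38), and the 95% interval ran from -0.89 to 0.86. Its sign turned when WT 1 was left out (0.47) or HKO 3 or HKO 1 (0.14 and 0.09).

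Fat cell markers were at or near 0. Adipoq, Lep and Retn had no count in any library, and all 5 fat cell markers summed to at most 0.161 CPM. The summed endothelial markers were 582 CPM in HKO 2 and between 128 and 230 CPM in the other 5 libraries, and the stellate and fibroblast markers 574 CPM against 95.3 to 160 CPM. Of these lists 1 of 10 tested endothelial and 3 of 9 tested stellate markers rose, beside 12.1% of all genes. HKO 2 was thus the HKO library with the highest Pparg and Thra and also the one with the highest levels of these markers, and the part of those cells in either value was not tested. In bulk RNA, fewer cells of a type and less RNA per cell cannot be told apart.

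Genes of fat storage that PPAR-gamma is known to control were higher in part. Among 16 tested genes 10 rose (62.5%, beside 12.1% of all genes) and 1 fell, while 5 missed the threshold (median 1.14). Cidec, which fuses lipid droplets, rose from 1.36 ± 0.855 to 27.5 ± 5.36 CPM (4.32 on the log2 scale). Plin4, a droplet coat gene, rose from 3.44 ± 0.233 to 23.9 ± 0.567 CPM (2.80). Pck1, an enzyme of glucose and glycerol synthesis, and the fatty acid transporter gene Slc27a1 rose with log2 fold changes of 2.01 and 1.57. The 1 gene that fell was the lipase gene Lpl (-1.75), named after its values were seen, and its groups overlapped, with WT 1 at 86.4 CPM and the other WT libraries at 22.8 and 39.0 CPM. Without WT 1 its log2 fold change was -1.08 (adjusted p = 0.0999), and the call was also lost with limma-voom, with the replicate block (0.0758) and without HKO 1, HKO 3 or WT 3. When 1 library was left out between 8 and 11 genes rose. The target genes Fabp4 and Cd36, named after their values were seen, did not pass (log2 fold changes 1.63 and 0.75, adjusted p = 0.0616 and 0.162). HKO 2 was the highest library in both, at 28.3 and 79.8 CPM. This list too was drawn up with earlier results of these samples known, so its count is no independent evidence of direction.

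Among the 3 PPAR genes, Ppara made up most of the summed FPKM in every library. Its share was 79.0%, 82.2% and 87.9% in HKO and 66.4%, 81.2% and 81.8% in WT, and the lowest value was that of WT 1, where Pparg took 25.2%. The log2 ratio of Pparg to Ppara differed between the groups by -0.59 (exact permutation p = 0.6) and that of Ppard to Ppara by -0.44 (p = 0.2), both with an adjusted p of 1 over the 5 ratios. Without WT 1 the first of these was -0.02.

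**Figure D2:**
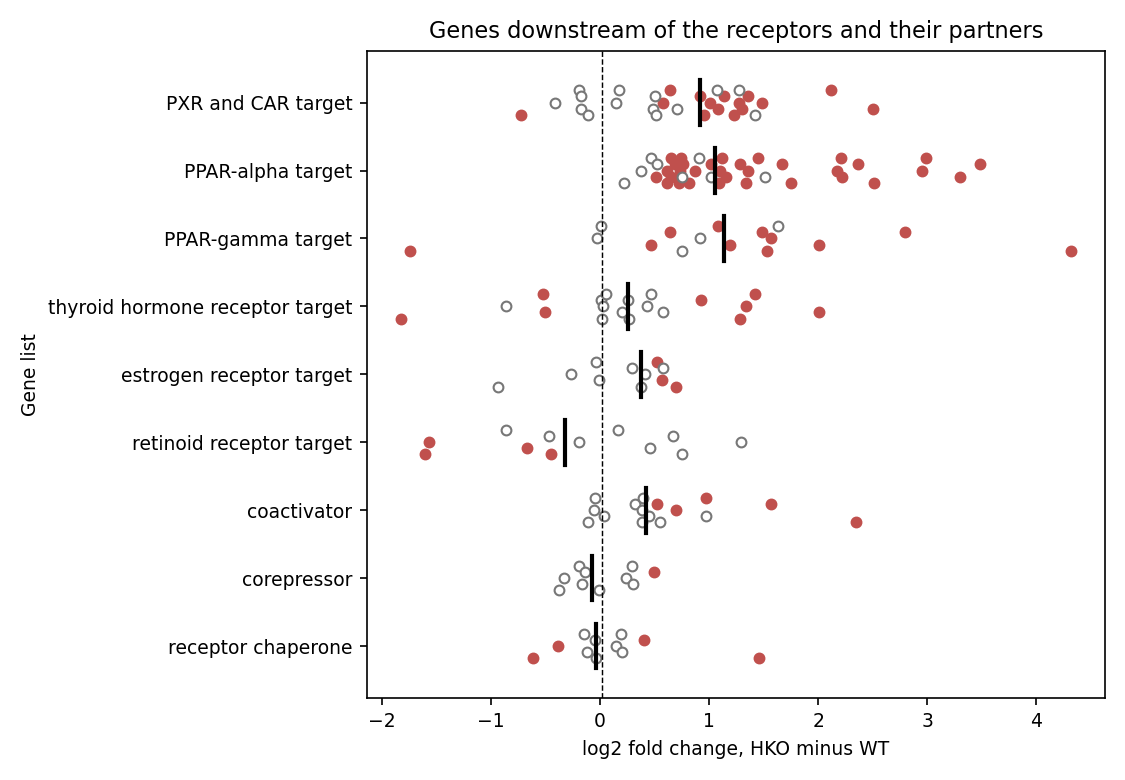
Points are genes, placed by log2 fold change (HKO minus WT), for 9 lists of receptor targets and partner proteins. Filled points were called at an adjusted p below 0.05, thick bars are list medians, and the dashed line is the median of all genes tested. Most PPAR-alpha target points lie to the right and are filled, and those of corepressors lie around the dashed line.

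Rxra encodes the common partner of the other receptors except Esr1. Rxra (ENSMUSG00000015846, chromosome 2, 27676440 to 27762957, plus strand) had 388, 389 and 459 CPM in the HKO libraries 1, 2 and 3, against 312, 367 and 337 CPM in the WT libraries. The groups did not overlap, but the gap between WT 2 and HKO 1 was small. The mean was 412 ± 40.6 CPM in HKO and 339 ± 27.4 CPM in WT, and the difference did not pass (log2 fold change 0.28, SE 0.11, 95% interval 0.02 to 0.55, unadjusted p = 0.0379, adjusted p = 0.108). It was past the threshold in none of the 14 settings (adjusted p from 0.0980 to 0.301).

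The levels of the partners were set against that of Rxra within each library. The summed FPKM of the 7 partner genes (Nr1i2, Nr1i3, Ppara, Ppard, Pparg, Thra and Thrb) divided by that of Rxra was 1.73, 1.68 and 1.62 in HKO and 1.14, 1.06 and 1.10 in WT. Scaled to the union of annotated exons in place of the length in the FPKM, the ratio was 1.45 ± 0.0431 in HKO and 0.945 ± 0.0522 in WT. The groups did not overlap on either scale. Nr1i2 and Nr1i3 made up most of the sum and were known to differ, so this ratio is given as a description with no test.

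Genes that retinoid receptors are known to control were lower or did not pass. Among 12 tested genes 4 fell (33.3%, beside 11.2% of all genes) and none rose, while 8 missed the threshold (median -0.32). Among those that fell were Cyp26a1, which breaks down retinoic acid (log2 fold change -1.57), the transglutaminase gene Tgm2 (-0.68) and Dhrs3, a retinal reductase gene (-0.45). Between 2 and 5 fell with 1 library left out. Cyp26a1 was no longer called with limma-voom, with the block, or without HKO 1 or HKO 3 (adjusted p up to 0.0882), and its log2 fold change was -0.97 without WT 1. Dhrs3 was lost without HKO 3, WT 2 or WT 3 (up to 0.0719).

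The thyroid hormone receptor genes did not pass the test. Thrb, which encodes the main form in hepatocytes (ENSMUSG00000021779, chromosome 14, 17660960 to 18038088, plus strand), had 26.6, 19.8 and 37.4 CPM in the HKO libraries 1, 2 and 3, against 21.5, 30.8 and 28.3 CPM in the WT libraries. HKO 2 was the lowest and HKO 3 the highest of all 6 libraries, so the HKO range enclosed the WT range. The log2 fold change was 0.06 (SE 0.24, 95% interval -0.49 to 0.60).

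Thra encodes the form that prevails in heart and brain. Thra (ENSMUSG00000058756, chromosome 11, 98740638 to 98769006, plus strand) had 4.19, 7.08 and 3.73 CPM in the HKO libraries 1, 2 and 3, against 3.94, 5.11 and 5.06 CPM in the WT libraries, from 71 to 122 counts per library. HKO 2 was the highest and the rest lay close together. The log2 fold change was 0.08 (SE 0.28, 95% interval -0.56 to 0.72), and it was -0.25 without HKO 2. Thra and the clock gene Nr1d1 share 263 exon bases on opposite strands (chromosome 11, 98768157 to 98768419), 5.70% of the annotated exon bases of Thra. Nr1d1 fell from 46.1 ± 2.01 to 6.30 ± 3.00 CPM, and how much of its reads were counted for Thra was not tested.

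Thrb exceeded Thra in every library on the FPKM scale. The share of Thra in the sum of both was 28.1%, 47.0% and 19.8% in HKO and 31.2%, 29.1% and 30.7% in WT. The WT libraries lay within a narrow band, with HKO 2 well above it, HKO 3 well below it and HKO 1 just below it. The difference of the mean log2 ratios of Thra to Thrb was 0.02 (exact permutation p = 1).

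Among 19 tested genes that thyroid hormone is known to control 5 rose (26.3%, beside 12.1% of all genes) and 3 fell (15.8%, beside 11.2%), while 11 missed the threshold (median 0.26). The largest rises were those of Pck1 (2.01), Upp2 (1.42), Thrsp (1.34) and Cpt1a (1.28). Upp2 is an enzyme of uridine breakdown, Thrsp a lipogenic gene first found as a thyroid hormone response, and Cpt1a admits fatty acids to mitochondria. Pck1 is also in the list of PPAR-gamma targets and Cpt1a in that of PPAR-alpha targets. Cyp7a1, the rate-limiting enzyme of bile acid synthesis, fell from 166 ± 122 to 46.5 ± 6.93 CPM (log2 fold change -1.83, adjusted p = 0.0285), and Bcl3 fell by 0.51. The log2 fold change of Cyp7a1 was -1.08 without WT 1. Without WT 3 no gene of the list was called lower (adjusted p = 0.0608 for Cyp7a1 and 0.0523 for Bcl3). Bcl3 was also lost without WT 1 or WT 2, and Cyp7a1 without HKO 1 or HKO 3 (adjusted p up to 0.0593 and 0.0877). Dio1, the deiodinase gene long used as a readout of thyroid hormone in liver, had overlapping groups and a log2 fold change of 0.01, whose sign turned with upper-quartile scaling and without HKO 1 or WT 1, and is named after its values were seen.

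Of 8 tested genes of thyroid hormone transport and conversion 2 rose (25%, beside 12.1% of all genes) and 6 missed the threshold. Serpina7, which encodes thyroxine-binding globulin, rose from 35.1 ± 14.4 to 212 ± 47.6 CPM (log2 fold change 2.59, adjusted p = 0.00134). Slc10a1, a bile acid carrier that also takes up thyroid hormones, rose from 227 ± 39.9 to 388 ± 41.8 CPM (0.78).

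Esr1 encodes estrogen receptor alpha. Esr1 (ENSMUSG00000019768, chromosome 10, 4611593 to 5005614, plus strand) had 21.7, 22.7 and 21.6 CPM in the HKO libraries 1, 2 and 3, against 16.7, 31.9 and 30.1 CPM in the WT libraries. HKO values were alike, 2 WT libraries lay above them and WT 1 below. The log2 fold change was -0.25 (SE 0.23, 95% interval -0.77 to 0.27, adjusted p = 0.453). Without WT 1 Esr1 was called lower (log2 fold change -0.50, adjusted p = 0.0242), so 1 library decides this call.

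Of 11 tested genes known to respond to estrogen 3 rose (27.3%, beside 12.1% of all genes) and 8 missed the threshold. Those that rose were Igfbp4, a binding protein of insulin-like growth factors (log2 fold change 0.69), the small heat shock gene Hspb8 (0.57) and the lysosomal protease gene Ctsd (0.52). The count was 6 without HKO 2 and 1 without WT 3. Of 12 tested genes of estrogen and androgen metabolism 3 rose and 3 fell (25% each, beside 12.1% and 11.2% of all genes). Hsd17b6, Hsd17b11 and Hsd17b4 rose (log2 fold changes 1.25, 0.93 and 0.72), and Hsd3b5, a steroid dehydrogenase gene with higher expression in male liver, fell from 20.3 ± 5.46 to 4.37 ± 1.81 CPM (-2.20). The call of Hsd17b6 was lost without HKO 1, HKO 3 or WT 3 (adjusted p up to 0.0871). Hsd17b2, which inactivates estradiol, fell by 1.22 and Hsd17b12 by 0.83 on the log2 scale, the latter not called without WT 2 or WT 3 (up to 0.0769).

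WT 1 and WT 2 were most often at the ends of the WT range. WT 1 was the lowest of the WT libraries in 6 of the 9 genes (Nr1i2, Ppara, Rxra, Esr1, Thrb and Thra) and the highest in 2 (Nr1i3 and Pparg), and WT 2 was the highest in 7 and the lowest in the other 2. HKO 3 was the highest of its group in 5. The coefficient of variation over 3 libraries ranged from 2.78% (Esr1) to 36.3% (Thra) in HKO and from 7.67% (Nr1i2) to 50.4% (Pparg) in WT.

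Levels of different receptors were compared per length. On the deposited FPKM scale the order in WT was Rxra (40.8 ± 1.52), Nr1i2 (25.5 ± 0.726), Nr1i3 (7.53 ± 2.02), Ppara (7.03 ± 1.27), Thrb (1.85 ± 0.247), Esr1 (1.37 ± 0.382), Pparg (1.31 ± 0.727), Ppard (0.819 ± 0.243) and Thra (0.805 ± 0.0775). Ranges of neighbours overlapped for Nr1i3 and Ppara and for every pair from Thrb downwards. Within a library, Thrb was above Esr1 in all 3 WT libraries, while the order of each of the other overlapping neighbours varied between libraries. Rxra, Nr1i2 and the pair of Nr1i3 and Ppara were each set apart, and Ppara lay 3.79-fold above Thrb.

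In HKO the first 4 ranks were the same, and the gap between Rxra and Nr1i2 was narrower. Nr1i2 reached 49.5 ± 6.93 FPKM, beside 49.8 ± 6.87 FPKM for Rxra, and their ranges overlapped, whereas in WT Rxra was 1.6-fold above Nr1i2 in mean and higher in all 3 libraries. Nr1i3 (17.6 ± 1.43 FPKM) lay above Ppara (11.3 ± 3.66 FPKM) with no overlap. The lower part of the order again had overlapping neighbours, except that Esr1 (1.16 ± 0.0326) lay above Ppard (0.917 ± 0.0778) in every HKO library.

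The length in the FPKM matters for this order. For 7 of the 9 receptors it equals the sum of the distinct annotated exons, so that bases in several alternative exons count more than once. That length is 1.0 times the union of exons for Nr1i2, which has 1 annotated transcript, and 1.95 times for Nr1i3, which has 8. The annotation gives Ppard and Thrb other coordinates than the table does. Scaled to the union, Nr1i3 was at 14.7 ± 3.95 in WT and 34.4 ± 2.80 in HKO on the FPKM scale, and Rxra in HKO at 75.6 ± 10.4, so that Rxra was again above Nr1i2 in every HKO library. Thra then ranked above Ppard in both groups. Differences between the groups for 1 gene do not depend on the length.

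**Figure D3:**
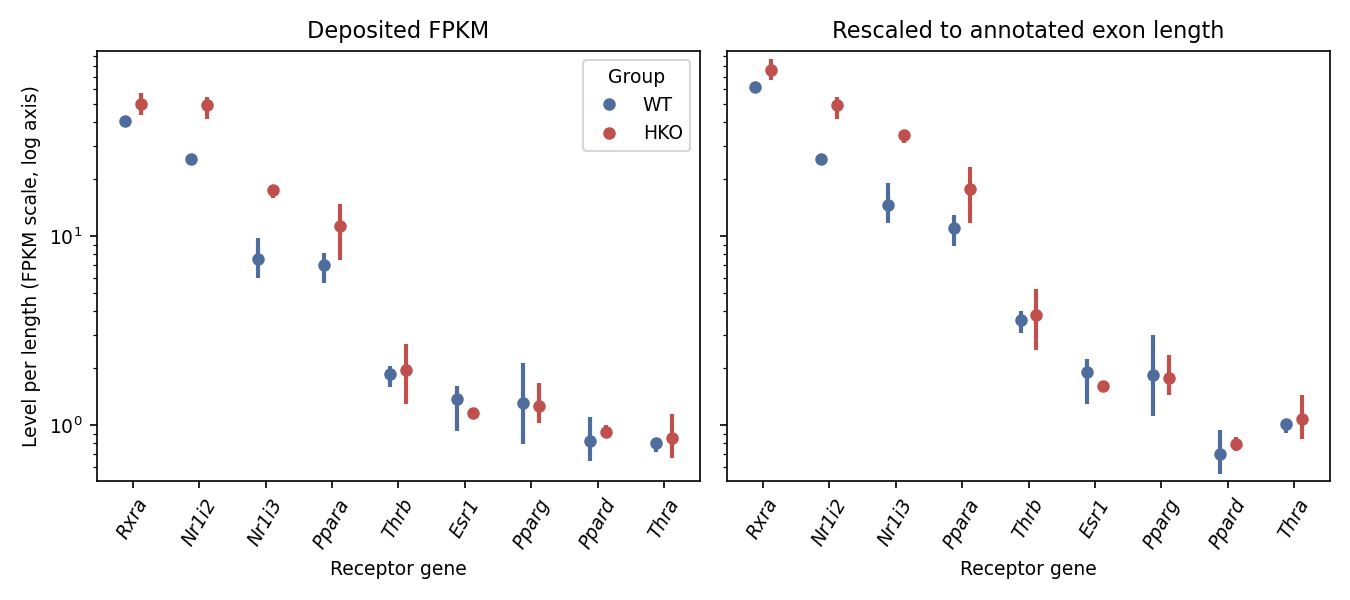
Levels of the 9 receptor genes per length, on a log axis, in WT and HKO. Points are means and bars run from the lowest to the highest of 3 libraries. The left panel uses the deposited FPKM, and the right panel rescales them to the union of annotated exons, which lifts Nr1i3 and Rxra relative to Nr1i2.

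The receptors were then set among the other nuclear receptor genes of the mouse. Of 49 in the list 35 were tested, and of the 26 tested that are not among the 9, 4 rose and 2 fell, beside 23.2% of all genes called in either direction, so that share was close to the background. Among those that rose, Nr4a1, an immediate early receptor gene, went from 0.943 ± 0.197 to 4.81 ± 0.906 CPM (2.34 on the log2 scale). Esrra, a regulator of mitochondrial genes, rose from 12.0 ± 0.906 to 25.6 ± 2.51 CPM (1.10). The falls were in Nr1d1 (-2.87) and in Nr3c1, the glucocorticoid receptor gene (-0.49). The call of Nr3c1 was lost when any WT library was left out (adjusted p up to 0.0825).

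**Figure D4:**
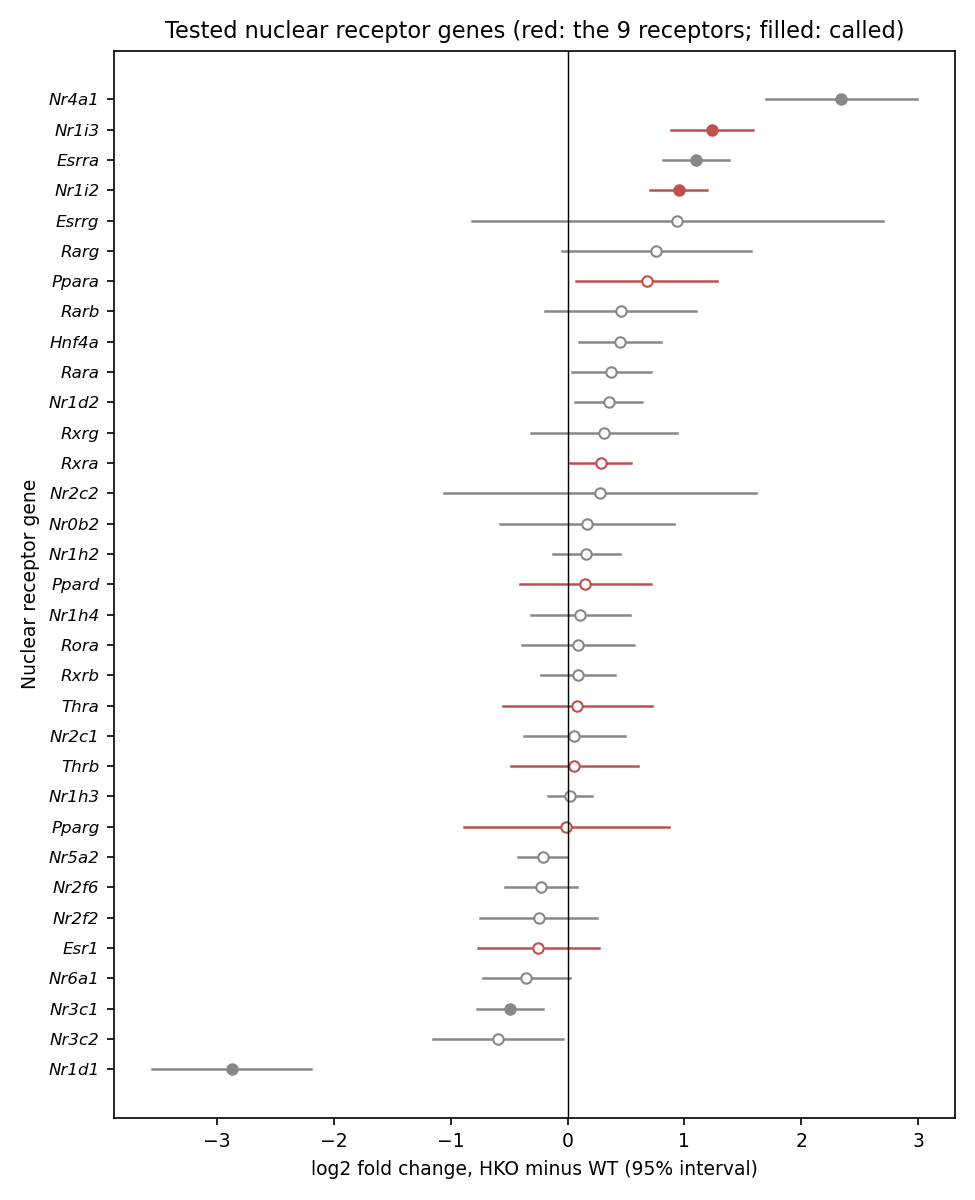
Log2 fold changes (HKO minus WT) of tested nuclear receptor genes, with 95% intervals as lines. Red marks the 9 receptors and filled points those called, and the points of Nr1i3 and Nr1i2 are filled and right of 0.

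Coactivator genes were higher in part. Among 16 tested genes 5 rose (31.2%, beside 12.1% of all genes) and none fell, while 11 missed the threshold (median 0.42). Lpin1, a phosphatidate phosphatase gene whose product also acts with PPAR-alpha, rose from 33.4 ± 20.3 to 169 ± 42.7 CPM (2.34 on the log2 scale), and Lpin2 by 1.57. Ppargc1a, the coactivator PGC-1-alpha, rose from 8.53 ± 2.34 to 16.7 ± 3.16 CPM (0.97, adjusted p = 0.0195), and Pprc1 by 0.70 on the log2 scale. The call of Ppargc1a was lost without HKO 3 or WT 3 (adjusted p = 0.0626 and 0.0721). That of Pprc1 was lost with the replicate block (adjusted p = 0.0803) and without HKO 1, HKO 3, WT 2 or WT 3 (up to 0.128). Without WT 3 or HKO 3, 2 of the 5 were called. Of 10 corepressor genes only Gps2 rose (0.49), which is 10% beside 12.1% of all genes and so near the background. The call of Gps2 was lost in 8 of 14 settings.

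Receptor chaperones hold CAR and the steroid receptors in the cytosol. Of 11 tested 2 rose and 2 fell (18.2% each, beside 12.1% and 11.2% of all genes), which is near the background. Fkbp5, a glucocorticoid-induced immunophilin gene, rose from 64.0 ± 14.1 to 175 ± 25.3 CPM (log2 fold change 1.46) and Hsp90ab1 with 0.40. Hsp90aa1 fell by 0.62 and Dnajc7, which retains CAR in the cytosol, by 0.39 on the log2 scale. The calls of Hsp90ab1, Hsp90aa1 and Dnajc7 were each lost when certain single libraries were left out (adjusted p up to 0.137, 0.0560 and 0.0946). That of Hsp90ab1 was also lost with the replicate block (0.0851) and with no filter on low counts (0.0514).

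Genes listed for fatty acid supply, transport or related acyl-CoA steps also differed, and fatty acids are ligands of the PPARs. Of 17 tested 7 rose (41.2%, beside 12.1% of all genes), 4 fell (23.5%, beside 11.2%) and 6 did not pass. The triglyceride lipase gene Pnpla2 rose by 1.53 on the log2 scale and the thioesterase gene Acot12 by 1.26. The acyl-CoA synthetase gene Acsl1 rose by 1.16 and the transporter gene Slc27a2 by 1.05. Pnpla2 is also in the list of PPAR-gamma targets and Acsl1 in that of PPAR-alpha targets. Fabp5, a fatty acid binding protein gene, fell from 47.1 ± 3.18 to 15.0 ± 8.26 CPM (-1.66), Acsl3 fell by 1.55 and Acsl5 by 0.43, the last called in 9 of 14 settings.

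For the receptors that were called, the genes with the most similar pattern over the 6 libraries were named by Pearson's r of log2 CPM among 7217 genes with a mean of at least 10 CPM. Nearest to Nr1i2 were Pbld2, Gys2 and Glrx (r = 0.9992, 0.9984 and 0.9982). Nearest to Nr1i3 were Aldh3a2, Por and Abhd6 (r = 0.9995, 0.9972 and 0.9971), and Por is also in the list of PXR and CAR targets. The 6 libraries form 2 groups, so any gene with a large and even group difference scores high: 529 genes reached r above 0.95 with Nr1i2 and 295 with Nr1i3.

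**Figure D5:**
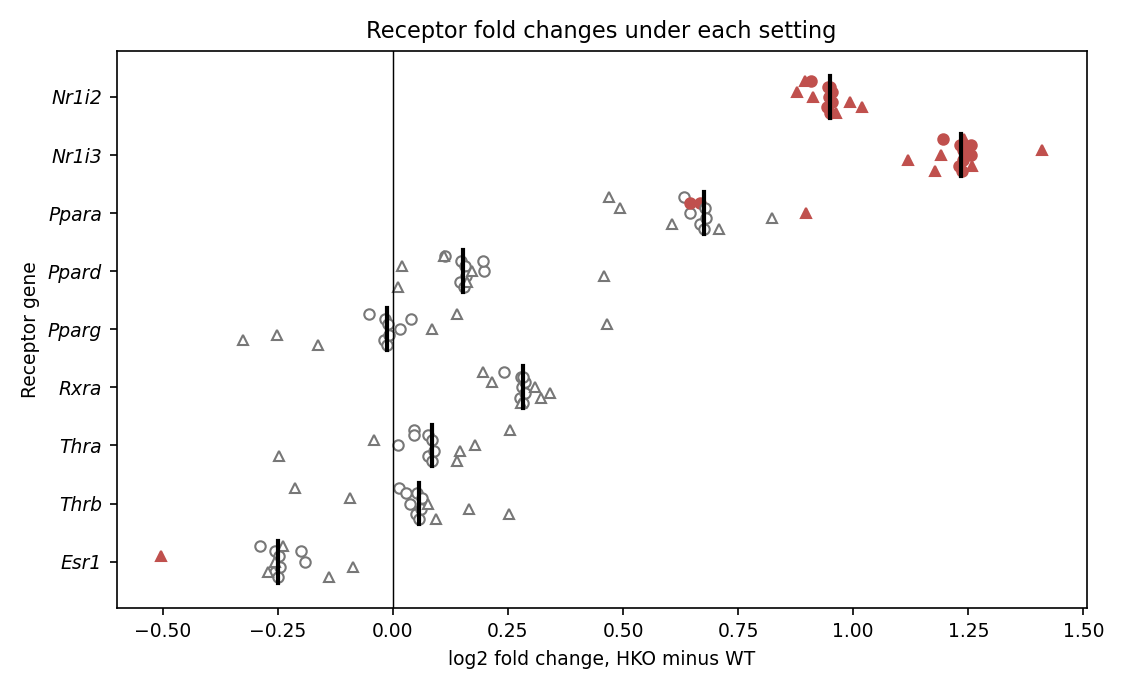
Log2 fold changes of the 9 receptor genes under each of 14 other settings. Black bars are the values reported, triangles leave out 1 library, circles change the test, scaling, filter or block, and filled red symbols were called. Nr1i2 and Nr1i3 are red throughout, Ppara in 3 settings and Esr1 in 1.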

How the data were processed

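Per the submitters' processing notes, HISAT2 2.0.4, StringTie 1.3.0, mm10 and GRCm38.p4 were used, and their settings, the annotation and the strand setting are not given in the sources used here. The authors deposited 1 table of 34745 genes with a raw read count and an FPKM value for each of the 6 libraries. In 9308 genes whose count was 50 or more in each library, count and FPKM implied the same gene length in all libraries within 0.1%, and 16194 genes were at 0 everywhere. Total counts ran from 16659778 to 21168233.

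Counts were tested in R 4.3.3 with edgeR 4.0.16 (filterByExpr, TMM scaling, quasi-likelihood test, group only, Benjamini-Hochberg adjustment over 12556 genes, calls at an adjusted p below 0.05). DESeq2 1.42.0, limma 3.58.1 (voom), RLE and upper-quartile scaling, other filters, mitochondrial mRNAs left out, a replicate block and each library left out were the 14 alternatives. The rescaling to annotated exon length was chosen after seeing the data. The fit was tested on simulated data. Deposited FPKM served only for levels, shares and ratios. Deviations of same-numbered libraries had r of -0.00192, 0.00248 and 0.0717, and those of other pairs ran from -0.0764 to 0.0556. Nothing in the labels says that equal numbers share a litter, day or batch, so the numbers were not taken as pairs.

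The members and lists were chosen with earlier results of these data known. Some genes are in several lists, such as Pck1, Cpt1a, Hsd17b4, Acsl1, Pnpla2 and Lpl, so the list counts are not separate readouts. Named were the 9 receptors, genes whose exons overlap theirs, other nuclear receptors called, the 3 genes most like each called receptor, and from each list up to 4 called genes per direction with the largest fold change and no overlap of groups. Annotation was GENCODE M21, and promoter sequences were from RefSeq (GRCm38.p6). Some genes that meet this rule are not reported here.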

Additional observations from a re-analysis of the deposited data

How the results depend on the processing

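Of 126 comparisons of a receptor with an alternative, 113 kept direction and call, 4 gained a call (Ppara in 3, Esr1 in 1) and none lost one. The other 9 changed sign, all for receptors that were not called. With 1 library left out, the log2 fold change ranged from -0.33 to 0.47 for Pparg, -0.21 to 0.25 for Thrb and -0.25 to 0.25 for Thra. Pparg also turned with limma-voom (0.015) and with the replicate block (0.040). Over the same omissions the log2 ratio of Pparg to Ppard ranged from -0.67 to 0.35 and that of Thra to Thrb from -0.49 to 0.43. The count of receptors called lower ranged from 0 to 1, the 1 being Esr1 without WT 1. Over all genes, leaving out 1 library gave 722 to 1589 called higher and 682 to 1546 called lower, lowest without WT 3, and fewer libraries enter those fits. Without HKO 3 the counts were 969 and 907, and without WT 2 they were 952 and 894. With the replicate block 1245 genes were higher and 1115 lower, and of the receptors Ppara alone changed its call. Pparg, Ppard and Thra had 61 to 151 counts a library, which limits what can be seen of them. Of 364 list counts under an alternative, 51 moved by over 1.5 times or changed to or from 0.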
